A study of Mus musculus with 52 samples.

Results

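Oligodendrocytes of the mouse spinal cord were compared between 2 mutations of SOD1, G85R and G37R, in 3 libraries of each at 11 months. The libraries are all those that the labels give as oligodendrocyte, 11 months and SOD1 G85R or SOD1 G37R. They make up 6 of the 52 libraries of the series, and the 5 non-transgenic control libraries of the same table served as the background. The series profiled motor neurons, astrocytes and oligodendrocytes of spinal cord, and whole spinal cord beside them, to find transcripts that mutant SOD1 alters in each cell type. In the purified samples, mRNA was taken from ribosomes through RPL10A, a ribosomal protein tagged with EGFP that a reporter mouse makes in selected cells, and was sequenced as poly(A) RNA in 50 nt single reads. Controls were labelled Non-Tg, and all 11 libraries were labelled early symptomatic stage. Replicate 1 was male and replicates 2 and 3 were female in both mutant groups, and 2 male and 3 female libraries made up the controls. The series' design text calls the libraries biological replicates. The labels name neither the promoter that drives the tag in oligodendrocytes nor the transgenic line or strain of either mutant. They give no record of how far each library's donor had progressed, so mutation, line and progression cannot be told apart in any value below.

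SOD1 encodes the cytosolic copper and zinc superoxide dismutase, and its mutations cause a dominant form of amyotrophic lateral sclerosis. The G37R protein is known to keep much of its enzyme activity, while the G85R protein is known to bind metal poorly and to be largely inactive. Oligodendrocytes wrap axons in myelin and pass lactate to them, and in diseased cord they are known to switch on genes of acute phase, complement and interferon responses.

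Values are given in FPKM-equivalents, the deposited values divided by a factor that puts them on the scale of FPKM, read fragments corrected for gene length and library total. Differences are of the mean of log2(value + 1), G85R minus G37R, with their SE, so they understate the change of genes with low values. Each adjusted p is from limma with Benjamini-Hochberg adjustment over 11733 genes, with a threshold of 0.05. Absolute depth is not known, and the deepest of the 11 libraries was 1.21 times as deep as the shallowest. Y-linked Ddx3y was at 18.7 to 24.9 in the 4 libraries labelled male and at 0.015 or less in the 7 labelled female. Myelin genes marked the purified cells, since 17 of 19 lay above whole cord of 11-month controls, with a median log2 ratio of 2.0 across tables that were normalized separately. Microglial, astrocytic and neuronal markers mostly lay below whole cord but were not at 0, and their levels are given beside the results they move with. Endothelial markers summed to 7.49 to 10.8 a library, most of it from Egfl7 at 5.54 to 8.25, and Pecam1 was at 0.099 or less. Some abundant genes were listed at or near 0 in single libraries, 68 of them in the mutant libraries, and a 0 is not read as absence.

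The library G85R 1 stood apart from the other two G85R libraries. Across the tested genes, G85R 2 and G85R 3 correlated at r = 0.987, while G85R 1 correlated with them at 0.957 to 0.968 and with the G37R libraries at 0.967 to 0.975. G85R 2 and 3 correlated with the controls at 0.971 to 0.985, and G85R 1 with the controls at 0.936 to 0.958. G37R 1, the male library of its group, also crossed the grouping. It correlated with G85R 2 and 3 at 0.976 each, and with G37R 2 and 3 at 0.966 and 0.971. On the first principal component, which carried 47.6% of the variance, the controls lay between -33 and -8.3. G85R 2 and 3 lay at -7.4 and 1.2, G37R 1 at 8.2, and G37R 2, G37R 3 and G85R 1 all at 35.3. G85R 1 is also the male library of its group, so its sex and the rest of what sets it apart cannot be told apart. Calls are therefore counted with all libraries and without G85R 1, and each difference given without it has the value with all libraries beside it.

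**Figure D1:**
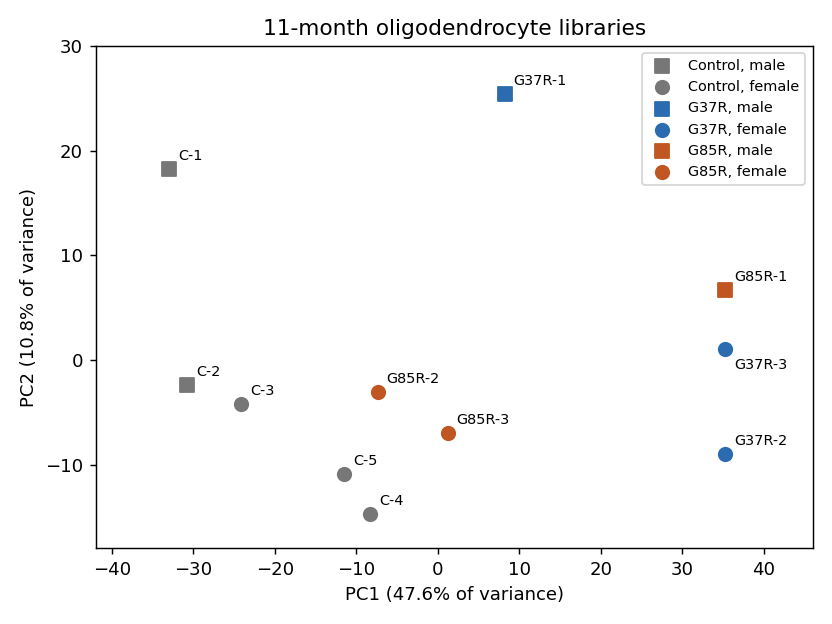
Principal components of the 11 oligodendrocyte libraries at 11 months, with PC1 (47.6% of the variance) on the x axis and PC2 (10.8%) on the y axis. Grey, blue and orange are control, G37R and G85R, and squares are male and circles female. G85R 2 and 3 lie beside the controls, while G85R 1 lies with G37R 2 and 3 at 35.3 on PC1.

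With all 3 libraries a group, few genes separated the mutations. Of 11733 genes, 5 passed (0.0426%), with 3 higher in G85R (0.0256%) and 2 lower (0.017%), and 1621 had an unadjusted p under 0.05. Quantile normalization gave 4 higher and 7 lower. The 5 genes were Pla2g4e, Fxyd7, Serinc5, Fam57a and Celf4, and all 5 passed again without G85R 1.

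Pla2g4e, a calcium-dependent acyltransferase of the cytosolic phospholipase A2 family that makes precursors of N-acylethanolamine lipids (mm9 chromosome 2, 119992147 to 120071071), had the larger difference of the lower genes. It was at 3.38, 5.45 and 4.17 in the G37R libraries and at 0.618, 0.632 and 0.554 in the G85R libraries, with the controls at 0.321 to 0.545. The groups did not overlap, and all 3 G85R libraries lay just above the highest control. Its mean of 1.55 over the 11 libraries reached the minimum of 1 for testing only through the G37R libraries, where it is high. The difference was -1.72 (SE 0.13, n = 3 and 3, limma adjusted p = 0.000307), and -1.73 (SE 0.15, adjusted p = 0.00179) without G85R 1. Fxyd7, a regulator of the sodium pump (chromosome 7, 31827533 to 31836473), was at 143, 131 and 151 in G37R and at 82.1, 74.2 and 65.1 in G85R. The G85R libraries lay among or near the controls, at 63.7 to 78.3, and below every G37R library. The difference was -0.93 (SE 0.11, limma adjusted p = 0.0117), and -1.01 (SE 0.11, adjusted p = 0.00946) without G85R 1.

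Serinc5, a membrane protein of the serine incorporator family (chromosome 13, 93381092 to 93481901), was at 45.0, 39.8 and 39.1 in G37R and at 60.9, 65.9 and 67.6 in G85R. The controls, at 68.8 to 74.2, lay above both groups, and every G85R library lay above every G37R library. The difference was 0.64 (SE 0.08, limma adjusted p = 0.0148), and 0.68 (SE 0.08, adjusted p = 0.0104) without G85R 1. Fam57a, which encodes a membrane protein with a TLC domain (chromosome 11, 76015557 to 76021759), was at 20.9, 20.6 and 18.4 in G37R and at 30.3, 29.97 and 27.6 in G85R, between G37R and the controls at 38.1 to 40.7. Its difference was 0.53 (SE 0.07, limma adjusted p = 0.0312), and 0.51 (SE 0.08, adjusted p = 0.0202) without G85R 1.

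Celf4, an RNA-binding protein of neurons (chromosome 18, 25636120 to 25912484), is named after its values were seen, since the rule for named genes leaves out genes with near-zero values. It was listed at 0 in all 3 G37R libraries, at 25.9, 21.4 and 19.2 in G85R and at 15.05 to 20.2 in the controls. In 8-month G37R oligodendrocytes it was listed at 15.7 to 17.8, and at 8.16 or more in the G37R libraries of every other table. No fold is therefore given for it.

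No further gene passed with all libraries, and the genes next in line by unadjusted p, without overlap between the groups, were Cyp20a1, Lin7c and Enpp4 higher in G85R and Hoxb7, Sord and Hoxb6 lower. All 6 missed the threshold with all libraries (limma adjusted p = 0.0667 to 0.145) and passed it without G85R 1 (0.0104 to 0.0429). Sord, sorbitol dehydrogenase, was at 16.4, 15.2 and 15.7 in G37R and at 11.9, 11.4 and 10.2 in G85R, with the controls at 9.47 to 9.98. Hoxb7, a homeobox factor of position along the body axis, was at 18.4, 19.4 and 17.6 in G37R and at 13.9, 12.3 and 12.1 in G85R. Its neighbour in the Hoxb cluster on chromosome 11, Hoxb6, was at 28.1, 26.5 and 22.6 against 18.0, 16.8 and 17.7. In these 3 genes every G85R library lay below every G37R library. Cyp20a1, a cytochrome P450 with no established substrate, was at 14.6, 16.5 and 16.9 in G37R and at 25.6, 21.8 and 23.6 in G85R. Lin7c, a scaffold of cell junctions, was at 14.1, 13.3 and 12.6 against 16.9, 18.7 and 19.2. Enpp4, of the ectonucleotide pyrophosphatase family, was at 33.8, 32.9 and 33.7 against 46.3, 41.8 and 43.3. In these 3 genes every G85R library lay above every G37R library and below the highest control.

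**Figure D2:**
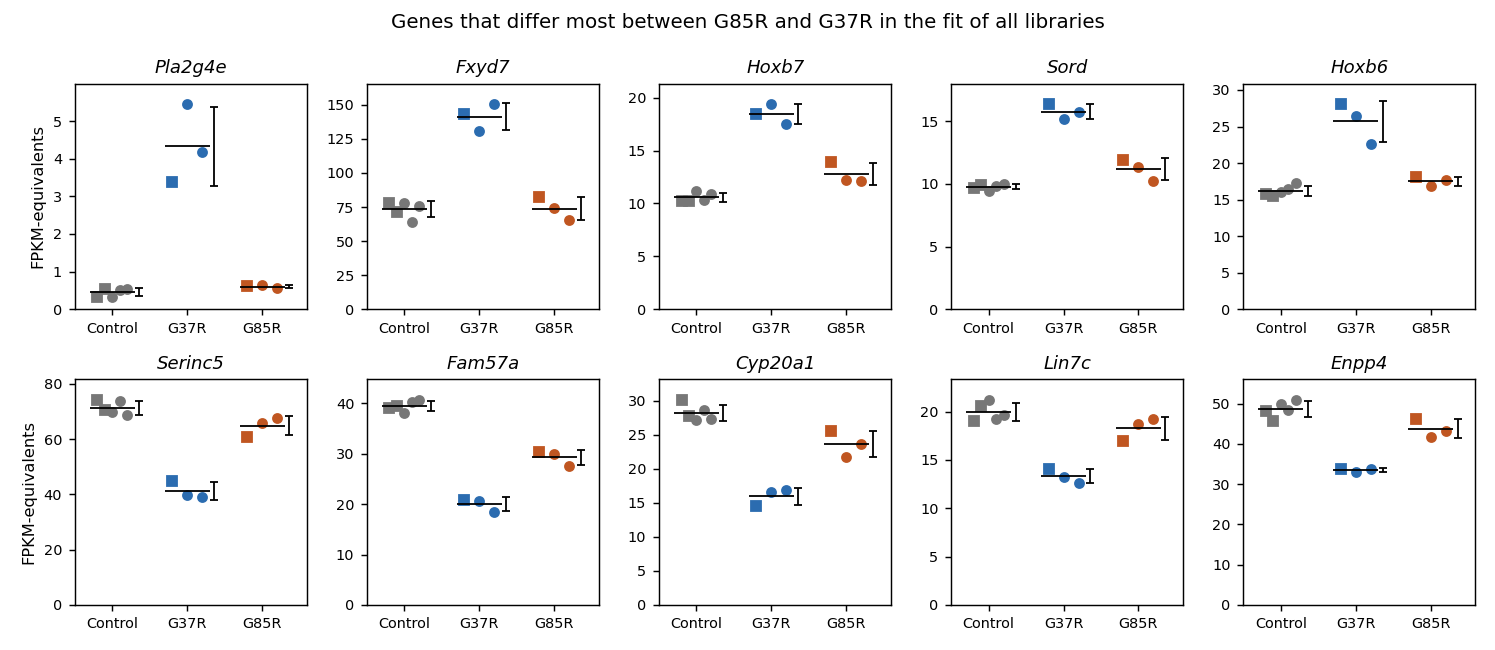
Levels in FPKM-equivalents (y axis, from 0) of the 10 genes named by the rule for the contrast, by group on the x axis. Each point is a library, squares are male and circles female, the line is the group mean and the bar beside it the SD; the G37R and G85R points do not overlap in any panel.

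Pla2g4e, Sord (122060574 to 122091073) and Lin7c (109731034 to 109741093) all lie on chromosome 2, and a list of genes around Pla2g4e there was looked at. The list was drawn up with earlier results of these data in view. Of 6 listed genes 4 were tested, and with all libraries 0 were higher and 1 was lower in G85R, Pla2g4e itself. The median was -0.5, beside -0.006 over all genes. Pla2g4e and Sord, already named above as lower in this contrast, are among the 4 tested. The median is thus fixed in part by that choice and is no support for a difference of the region. Ganc, an alpha-glucosidase (120229631 to 120286588), was at 2.96, 4.45 and 3.67 in G37R and at 2.30, 2.22 and 2.13 in G85R, without overlap, and missed the threshold (limma adjusted p = 0.235). Aven, an inhibitor of cell death (112333120 to 112471410), was at 59.6, 37.9 and 43.8 in G37R and at 52.9, 73.9 and 70.1 in G85R, and the groups overlapped through G85R 1. Gchfr, the regulator of GTP cyclohydrolase, and Fmn1, a formin, lay under the level needed for a test. Gchfr was at 2.25, 2.07 and 2.31 in G37R, listed at 0 in G85R 1, and at 0.78 and 0.835 in G85R 2 and 3. Fmn1 was at 1.15, 1.22 and 1.33 against 1.04, 0.629 and 0.66.

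The 8-month oligodendrocyte libraries, which these values did not use, hold G37R (n = 4) and control (n = 5) libraries, all male, and no G85R. There, Pla2g4e was at 2.81 ± 0.414 in G37R and 0.485 ± 0.106 in control (SD), a log2 difference of 1.36 in which the groups did not overlap. Sord was at 15.8 ± 1.17 against 9.5 ± 1.1, a difference of 0.69, also without overlap. Each had p = 0.00794 in an exact 2-sided permutation test, the smallest the design allows, and 0.0397 after adjustment over the 10 genes tested. The other 8 genes did not pass (exact permutation test, adjusted p = 0.185 to 0.405), and their differences lay between -0.14 and 0.21. Gchfr was at 3.3 ± 0.739 in 8-month G37R and 0.75 ± 0.267 in control.

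Without G85R 1, many more genes separated the mutations. Of 11733 genes 368 passed (3.14%), with 120 higher in G85R 2 and 3 (1.02%) and 248 lower (2.11%). Quantile normalization gave 266 higher and 336 lower. At least 2-fold differences were found for 80 of the lower and 2 of the higher genes. Of the 248 lower genes, G85R 1 lay at or above the lowest G37R library in 180 and above the highest in 119. Of the 120 higher genes, G85R 1 lay at or below the highest G37R library in 78 and below the lowest in 27. In most of the genes that set G85R 2 and 3 apart from G37R, G85R 1 thus reached the G37R range or lay beyond it. These genes were picked with G85R 1 left out, and the like share over all genes was not counted. Over all 11733 genes, every G85R library lay above every G37R library in 745 (6.35%) and below in 1236 (10.5%).

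The size of that list rests on the 5 controls as a measure of spread and on single libraries. Without G85R 1 the G85R group is all female, while G37R keeps 1 male library, and with sex as a covariate the 368 genes became 4284. With the mutant libraries alone 3 genes passed without G85R 1, against 3 with all 6 mutant libraries. Leaving out 1 more library gave 8 genes without G85R 2, 27 without G85R 3, 32 without G37R 3 and 36 without G37R 2. It gave 105 without control 3, 222 without control 1 and 2353 without G37R 1. Genes were tested if their mean over all 11 libraries, G85R 1 included, was at least 1, also in the fit without G85R 1. Low genes that are high in G85R 1 were therefore favoured for testing. The calls without G85R 1 below carry these limits.

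Genes of reactive glia were among those lower in G85R 2 and 3 than in G37R, while G85R 1 was above every G37R library in the 3 named first. Serpina3n, an acute-phase protease inhibitor that astrocytes and oligodendrocytes make in disease, was at 335, 407 and 499 in G37R and at 1001, 84.8 and 142 in G85R, with the controls at 50.1 to 76.3. G85R 1 was the highest of the 11 libraries, and G85R 2 and 3 lay below every G37R library. With all libraries the difference was -0.83 (SE 0.73, limma adjusted p = 0.624), and without G85R 1 it was -1.89 (SE 0.24, adjusted p = 0.0104). Vim, an intermediate filament, was at 57.7, 97.7 and 110 in G37R and at 145, 18.4 and 35.3 in G85R, with G85R 1 again highest (-0.88, SE 0.61, limma adjusted p = 0.536; without G85R 1 -1.70, SE 0.30, adjusted p = 0.0259). Gfap, the filament of astrocytes, was at 441, 726 and 765 against 901, 196 and 321, likewise (-0.70, SE 0.46, limma adjusted p = 0.510; without G85R 1 -1.32, SE 0.28, adjusted p = 0.0407). Of 15 tested reactive astrocyte genes, 0 passed with all libraries (median -0.34), and 0 were higher and 9 lower without G85R 1 (median -1.16). Over all genes tested, 2.11% were lower and the median was -0.012.

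Complement genes gave 6 calls of 7 tested without G85R 1. C4b, a component of the classical pathway that oligodendrocytes are known to make in disease, was at 42.6, 72.3 and 72.8 in G37R and at 127, 20.9 and 32.6 in G85R. G85R 2 and 3 lay below every G37R library, with G85R 2 inside the control range of 14.1 to 22.2 and G85R 3 above it. The difference was -0.44 (SE 0.54, limma adjusted p = 0.725) with all libraries and -1.19 (SE 0.26, adjusted p = 0.0455) without G85R 1. C1qa, a chain of the first component and a microglial gene, was at 35.3, 57.4 and 79.0 against 138, 12.2 and 18.4 (-0.75, SE 0.76, limma adjusted p = 0.670; without G85R 1 -1.79, SE 0.32, adjusted p = 0.0277). C3, the central component, was at 8.29, 13.5 and 18.0 against 36.3, 2.79 and 4.70, with a limma adjusted p of 0.745 with all libraries and 0.0336 without G85R 1. Of 7 tested complement genes, 0 passed with all libraries (median -0.55) and the 6 called without G85R 1 were all lower (median -1.56), beside 2.11% of all genes. C3 is counted among the reactive astrocyte genes as well. C4b, Serpina3n and Lyz2 have close copies in the mouse genome, and how the authors' counting divided such reads is not given in the sources used here.

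Microglial genes moved with these. Of 13 tested genes of disease-associated microglia, 0 passed with all libraries (median -0.62) and 6 were lower without G85R 1 (median -1.45), beside 2.11% of all genes and a median of -0.012. Among the called genes, Cst7 had a mean of 1.39 and reached the minimum of 1 only through G85R 1. Lyz2, lysozyme of myeloid cells, was at 17.3, 43.2 and 61.9 in G37R, 37.04 in G85R 1, and 2.87 and 6.08 in G85R 2 and 3. G85R 1 lay inside the G37R range, and the other G85R libraries below it (-1.87, SE 0.76, limma adjusted p = 0.336; without G85R 1 -2.83, SE 0.49, adjusted p = 0.0291). Lgals3, galectin-3, was at 12.9, 24.8 and 30.7 against 14.6, 2.82 and 5.15, with a limma adjusted p of 0.235 with all libraries and 0.0112 without G85R 1. Of 12 tested markers of homeostatic microglia, 0 passed with all libraries (median -0.06) and 4 were lower without G85R 1 (median -0.82), among them Fcgr3, an Fc receptor, at 4.42, 5.17 and 6.46 against 10.9, 1.49 and 2.06. The defining marker P2ry12 was at 3.37, 3.00 and 4.12 in G37R, beside 2.77 to 4.08 in the controls, and at 6.68, 2.92 and 2.90 in G85R. Tmem119 was at 1.25, 1.07 and 0.839 in G37R, beside 0.633 to 1.22 in the controls, and at 3.18, 0.523 and 0.717 in G85R.

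The summed levels of the marker lists give the amount of such transcripts in each library. Genes of disease-associated microglia, which include Apoe and Cd9, summed to 1006 to 1984 in the controls, to 1221, 1064 and 1272 in G37R and to 1725, 1094 and 1144 in G85R. Apoe, at 653 to 1571, and Cd9, at 205 to 370, carried most of that sum. The median of the list's tested genes lay above the control mean by 1.03, 1.85 and 2.27 on the log2 scale in G37R and by 2.32, 0.13 and 0.45 in G85R, so most of the tested genes were higher in G37R and G85R 1 than in the controls. Homeostatic microglial markers summed to 56.5 to 70.0 in the controls, to 79.7, 122 and 149 in G37R and to 257, 61.7 and 73.7 in G85R. Reactive astrocyte genes summed to 235 to 347 in the controls, to 921, 1337 and 1507 in G37R and to 2278, 344 and 556 in G85R. Homeostatic astrocyte genes, which include Glul, a gene that oligodendrocytes also express, summed to 4250 to 4671 in the controls, to 4477 to 5218 in G37R and to 4343 to 4886 in G85R. Aldh1l1, a folate enzyme that marks astrocytes, was at 19.1, 35.5 and 35.7 in G37R and at 44.5, 16.1 and 20.2 in G85R. In these samples more cells of a type and more RNA per cell cannot be told apart, and whether the transcripts came from oligodendrocytes or from carried-over glia was not tested.

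**Figure D3:**
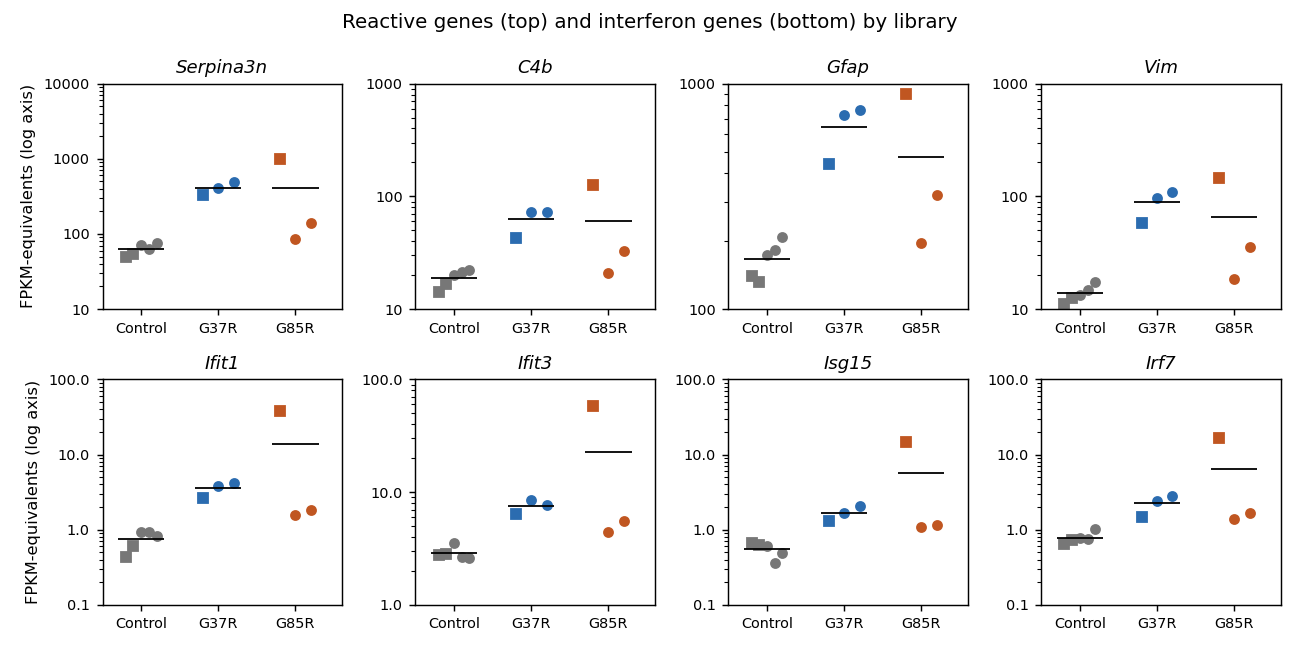
Levels in FPKM-equivalents (y axis, log scale) of 4 reactive genes (top) and 4 interferon genes (bottom) by group on the x axis. Each point is a library, squares are male and circles female, and lines are group means. G85R 1 is the highest library in all 8 panels, at 1001 for Serpina3n and 38.3 for Ifit1, while G85R 2 and 3 lie below every G37R library for all 4 reactive genes.

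Interferon-stimulated genes set G85R 1 apart from both groups. Ifit1, an RNA-binding effector of the antiviral response, was at 2.61, 3.87 and 4.24 in G37R and at 38.3, 1.58 and 1.84 in G85R, with the controls at 0.429 to 0.942. Ifit3, its partner, was at 6.41, 8.57 and 7.65 against 58.5, 4.44 and 5.49. Isg15, a ubiquitin-like modifier, was at 1.31, 1.68 and 2.07 against 14.8, 1.09 and 1.16. In all 3 genes G85R 1 was far above every other library, and G85R 2 and 3 lay below G37R and above the controls. Irf7, a transcription factor that amplifies interferon production, was at 1.498, 2.40 and 2.82 against 16.4, 1.37 and 1.66, where G85R 3 lay within the G37R range. These 4 genes were chosen after their values were seen. None passed with all libraries (limma adjusted p = 0.661 to 0.793) or without G85R 1 (0.0508 for Ifit1 to 0.216 for Irf7). The sign of each of the 4 differences turned from positive to negative when G85R 1 was left out.

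The interferon list as a whole gave the same order. Of 14 tested members 14 had a positive difference with all libraries (median 0.55) and 2 had one without G85R 1 (median -0.31), and 0 passed in either fit. Members were tested by their mean over all libraries, G85R 1 included, which favours genes high in that library. Summed over 19 listed members, tested or not, the levels were 76.6, 80.9 and 84.8 in G37R and 358, 67.5 and 71.1 in G85R. Against the control mean, the list's median lay at 3.18 on the log2 scale in G85R 1, at 0.61, 0.88 and 1.04 in G37R and at 0.40 and 0.58 in G85R 2 and 3. Antigen presentation genes did likewise, at 2.01 in G85R 1, 0.31 to 0.57 in G37R and 0.15 and 0.25 in G85R 2 and 3. Their tested members were chosen by the same filter. B2m, the light chain of class I molecules, was at 103, 86.4 and 114 in G37R and at 364, 84.98 and 103 in G85R. Psmb8, a subunit of the immunoproteasome, was at 6.90, 9.91 and 11.96 against 22.2, 3.10 and 3.52 and was lower without G85R 1 (-1.27, SE 0.20, limma adjusted p = 0.0194; with all libraries -0.46, SE 0.55, adjusted p = 0.719).

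Promoters of Ifit1, Ifit3 and Isg15 are shown, since interferon-stimulated genes are known to be switched on through the interferon-stimulated response element. They are RefSeq windows of GRCm38.p6 from 250 bases before to 50 after the gene start, each written along its gene's strand. The build differs from mm9, on which the files are based, and the coordinates in the next lines are of GRCm38.p6. Capitals mark matches to GAAANNGAAA on either strand, where overlapping matches run together.
Ifit1 (chr19:34640639-34640938, plus strand): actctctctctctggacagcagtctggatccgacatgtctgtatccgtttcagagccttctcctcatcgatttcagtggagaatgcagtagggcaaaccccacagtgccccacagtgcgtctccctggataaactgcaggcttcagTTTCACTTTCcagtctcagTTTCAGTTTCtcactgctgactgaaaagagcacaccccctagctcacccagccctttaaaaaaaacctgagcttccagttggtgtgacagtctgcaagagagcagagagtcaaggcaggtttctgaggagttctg
Ifit3 (chr19:34583279-34583578, plus strand): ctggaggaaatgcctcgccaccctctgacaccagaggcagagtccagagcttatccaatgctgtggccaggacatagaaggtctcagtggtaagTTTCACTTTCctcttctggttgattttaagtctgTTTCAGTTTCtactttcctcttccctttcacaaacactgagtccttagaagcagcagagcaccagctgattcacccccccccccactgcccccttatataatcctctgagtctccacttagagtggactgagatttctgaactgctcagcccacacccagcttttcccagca
Isg15 (chr4:156200769-156201068, minus strand): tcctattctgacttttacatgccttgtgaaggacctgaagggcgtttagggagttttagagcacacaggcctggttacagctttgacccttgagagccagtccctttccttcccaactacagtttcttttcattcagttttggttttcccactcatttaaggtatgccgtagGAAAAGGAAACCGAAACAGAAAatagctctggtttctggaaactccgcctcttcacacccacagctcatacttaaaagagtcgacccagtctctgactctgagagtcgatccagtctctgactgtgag
All 3 windows hold the motif, and the window of Irf7 holds no match. It was found in 1079 of 27025 genes with such a window (3.99%) and in 285 of the 8448 tested genes with one (3.37%). A window was matched for 11 of the 14 tested interferon genes, too few for a share over the list, and 6 of those 11 held it. A match describes these letters and is not a measured binding site.

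Myelin genes had positive differences, and no one of them passed the threshold. Of 19 tested genes of myelin structure, 19 had a positive difference with all libraries (median 0.36) and without G85R 1 (median 0.47), and 0 passed in either fit. Mobp, a basic protein of compact myelin, was at 1256, 762 and 729 in G37R and at 918, 1356 and 1239 in G85R, with the controls at 1718 to 1912. G37R 1 lay above G85R 1 and 3, so the groups overlapped (difference 0.38, SE 0.20, limma adjusted p = 0.42; without G85R 1 0.55, SE 0.20, adjusted p = 0.135). Mog, a glycoprotein on the outer surface of myelin, was at 603, 453 and 474 against 550, 720 and 712. Cnp, an enzyme of non-compact myelin, was at 7667, 6160 and 6426 against 6223, 8481 and 8706. Mbp, the main basic protein of myelin, was at 9822, 6449 and 6711 against 6984, 10366 and 10668. Mbp was listed at 0 in control 1, which inflates its fitted spread, so its test is not given. In Mobp, Mog, Cnp and Mbp, G85R 1 lay inside the G37R range and below G85R 2 and 3. That position did not hold across the list. In Cd9, Cldn11, Mag and Cntn2, G85R 1 lay above every G37R library and above G85R 2 and 3. Cldn11 was at 1199, 928 and 1011 in G37R and at 1487, 1077 and 1083 in G85R, and Mag at 933, 988 and 1063 against 1267, 1083 and 1131.

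Among regulators of the lineage, 3 genes were called, all without G85R 1. Of 15 tested lineage factors, 14 had a positive difference (median 0.3), 0 passed with all libraries, and without G85R 1 these 3 were higher (median 0.46), beside 1.02% of all genes. Lpar1, a receptor for lysophosphatidic acid, was at 49.8, 41.1 and 42.9 in G37R and at 42.5, 68.7 and 74.8 in G85R, with G85R 1 inside the G37R range (0.43, SE 0.19, limma adjusted p = 0.342; without it 0.68, SE 0.13, adjusted p = 0.0291). Gpr37, an orphan receptor of myelinating cells, was at 174, 157 and 162 against 191, 255 and 244, where all 3 G85R libraries lay above G37R (0.47, SE 0.14, limma adjusted p = 0.243; without G85R 1 0.60, SE 0.14, adjusted p = 0.0466). Zfp488, a transcriptional regulator of oligodendrocyte differentiation, was at 4.52, 4.49 and 3.86 against 5.26, 6.86 and 6.75. Olig1, a lineage factor, was at 718, 457 and 454 against 495, 756 and 741, and did not pass.

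Enzymes of myelin lipids and of cholesterol synthesis gave 1 call each without G85R 1, where 1.02% of all genes were higher, so neither count is a result about its list. Of 18 tested myelin lipid enzymes 1 was higher without G85R 1 (median 0.33, and 0.28 with all libraries), the fatty acid elongase Elovl7 at 17.5, 18.3 and 17.4 against 18.7, 23.9 and 26.4. Of 23 tested genes of cholesterol synthesis, 22 had a positive difference with all libraries (median 0.2), and 1 was higher without G85R 1, Dhcr7, which makes cholesterol in the last step, at 22.0, 19.8 and 20.3 against 22.5, 29.7 and 29.8. Scd1, a desaturase of fatty acids, was at 61.5, 44.2 and 43.2 against 66.9, 87.2 and 83.6. All 3 G85R libraries lay above all 3 G37R libraries in Elovl7, Dhcr7 and Scd1, and G85R 1 was the lowest G85R library in each. Scd1 differed by 0.67 (SE 0.15, limma adjusted p = 0.191) with all libraries and by 0.79 (SE 0.15, adjusted p = 0.0286) without G85R 1. Mylip, a ligase that degrades lipoprotein receptors, went the other way, at 4.10, 5.44 and 4.95 against 5.55, 2.39 and 2.57 (-0.43, SE 0.22, limma adjusted p = 0.396; without G85R 1 -0.74, SE 0.14, adjusted p = 0.0291). Scd1 and Mylip belong to the list of fatty acid synthesis and LXR targets. Of its 15 tested genes they were the only calls without G85R 1, 1 higher and 1 lower (median 0.05, and 0.06 with all libraries). The lactate transporter Slc16a1, through which oligodendrocytes feed axons, was at 27.9, 28.4 and 33.0 against 36.6, 31.6 and 30.4 (difference 0.14, SE 0.13, limma adjusted p = 0.647), with overlapping groups.

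Stress genes of the PERK and ATF4 pathway, which slows translation and raises amino acid synthesis, were mostly at negative differences. Of 24 tested, 18 had a negative difference with all libraries (median -0.19), 0 passed, and 3 were lower without G85R 1 (median -0.3), beside 2.11% and a median of -0.012 over all genes. Chac1, a glutathione-degrading enzyme and ATF4 target, was at 8.33, 11.4 and 11.1 in G37R and at 6.47, 5.22 and 5.51 in G85R, without overlap (-0.73, SE 0.14, limma adjusted p = 0.145; without G85R 1 -0.81, SE 0.15, adjusted p = 0.0277). Nupr1, a small stress-induced nuclear protein, was at 33.8, 23.9 and 36.5 against 19.4, 15.8 and 12.3, also without overlap (-0.94, SE 0.23, limma adjusted p = 0.211; without G85R 1 -1.09, SE 0.24, adjusted p = 0.0455). Unlike the immune genes, G85R 1 was on the G85R side in both. Atf3, a factor of acute injury, was at 1.61, 3.28 and 4.12 against 5.08, 0.419 and 1.04, with G85R 1 highest. Psat1, the tested member with the highest mean level, went the other way, at 642, 537 and 499 against 624, 648 and 683. Its groups overlapped (0.23, SE 0.10, limma adjusted p = 0.362; without G85R 1 0.26, SE 0.11, adjusted p = 0.193).

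Chaperones and antioxidant genes gave a few calls without G85R 1, where 2.11% of all genes were lower, and none with all libraries. Of 16 tested cytosolic heat shock genes 2 were lower (median -0.21, and -0.15 with all libraries), the small heat shock proteins Hspb1, at 18.6, 25.1 and 31.6 against 46.1, 8.12 and 9.98, and Hspb8, at 21.8, 26.0 and 24.5 against 23.8, 15.5 and 15.5. Of 20 tested antioxidant and metal response genes 4 were lower (median -0.07, and -0.09 with all libraries). Among them Prdx6, a peroxiredoxin, was at 199, 223 and 224 against 226, 135 and 142, and Hmox1, heme oxygenase, at 12.1, 12.4 and 14.9 against 21.8, 7.76 and 8.93. G85R 1 was inside or above the G37R range in all of these 4 genes. Gsta4, a glutathione transferase, was at 70.8, 73.8 and 66.4 against 61.5, 54.8 and 50.5, without overlap. Of 25 tested ER chaperones and degradation genes 0 passed in either fit (median 0.03, and -0.14 without G85R 1). Of 24 tested genes of autophagy and lysosomes 3 were lower without G85R 1 (median -0.17, and a median of 0 with all libraries), and these were Cd68, Ctss and Laptm5, genes of myeloid cells. Sqstm1, the autophagy receptor p62 and the gene with the highest value in all 3 G37R libraries and in G85R 1, was at 12289, 9054 and 9228 against 8634, 9862 and 8517 (difference -0.17, SE 0.17, limma adjusted p = 0.668).

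Glycolytic genes, which break down glucose, had 2 calls without G85R 1, Aldoc and Gapdh, where 2.11% of all genes were lower. Of 14 tested glycolytic genes, 13 had a negative difference with all libraries (median -0.35) and 14 without G85R 1 (median -0.41), where 2 were lower. Aldoc, an aldolase that is also counted among the homeostatic astrocyte genes, was at 1542, 1885 and 1942 in G37R and at 1481, 970 and 1137 in G85R, without overlap, with the controls at 705 to 994 (-0.60, SE 0.18, limma adjusted p = 0.243; without G85R 1 -0.76, SE 0.17, adjusted p = 0.0457). Gapdh was at 19.1, 21.0 and 20.8 against 16.7, 13.9 and 15.1, also without overlap, and has many near-identical pseudogenes. Ldha, lactate dehydrogenase A, which is counted with the lactate shuttle and not with glycolysis, was at 72.1, 104 and 112 against 99.0, 47.0 and 58.6 and was lower without G85R 1 (-0.83, SE 0.19, limma adjusted p = 0.0477; with all libraries -0.53, SE 0.25, adjusted p = 0.367). Of 31 tested genes of oxidative phosphorylation 0 passed in either fit (median 0.03, and 0.17 without G85R 1), and of 30 cytosolic ribosomal proteins 0 passed (median 0.08, and 0.2).

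Genes of axon injury had 5 calls without G85R 1. Of 15 tested axon injury genes, 13 had a negative difference with all libraries (median -0.31) and 5 were lower without G85R 1 (median -0.48), beside 2.11% of all genes. These were Atf3, Gap43, Hspb1, Sprr1a and Stmn2, of which Atf3 is also counted among the PERK and ATF4 genes, Hspb1 among the heat shock and reactive astrocyte genes and Stmn2 among the pan-neuronal genes. Stmn2, a microtubule regulator of growing axons, was at 276, 225 and 231 in G37R and at 211, 161 and 158 in G85R, without overlap, with the controls at 127 to 151 (-0.47, SE 0.13, limma adjusted p = 0.23; without G85R 1 -0.61, SE 0.11, adjusted p = 0.0277). Gap43, a growth cone protein, was at 70.8, 69.9 and 61.3 against 53.2, 47.9 and 45.4, without overlap. Sprr1a, a gene of injured neurons, was at 1.12, 1.86 and 1.95 against 5.44, 0.176 and 0.239, with G85R 1 highest. Its mean of 1.06 reached the minimum of 1 only through G85R 1, so its call without that library is no support for the list. Pan-neuronal genes summed to 6780, 7369 and 7965 in G37R, to 6881, 5284 and 5568 in G85R and to 3951 to 4875 in the controls. Of 14 tested, 12 had a negative difference (median -0.3). Whether these transcripts came from oligodendrocytes or from neuronal RNA in the samples was not tested.

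**Figure D4:**
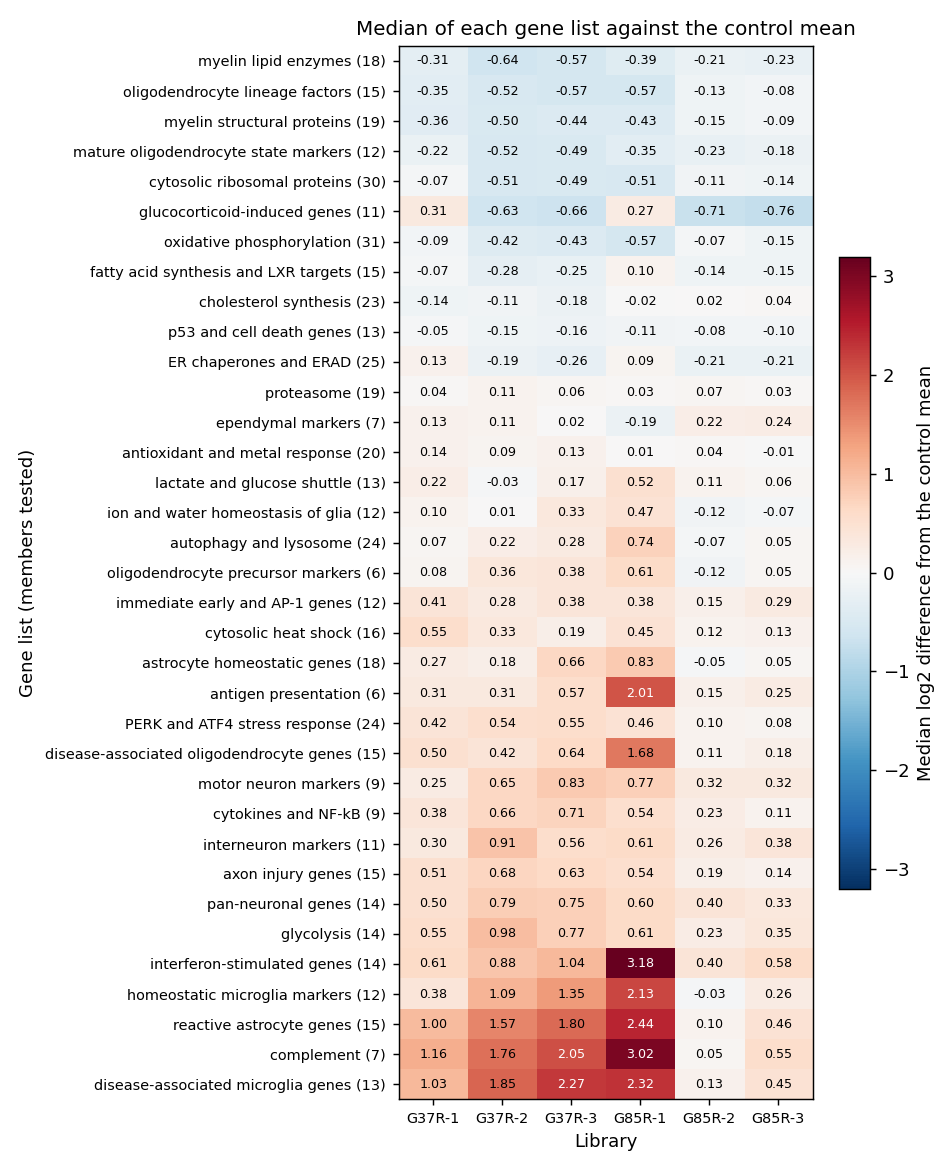
Median log2 difference from the control mean (colour and printed value) of each gene list with at least 5 tested members (rows, number tested in brackets) in the 6 mutant libraries (columns). G85R 1 exceeds every G37R library for interferon genes, at 3.18, and for complement, at 3.02, while G85R 2 and 3 lie within 0.58 of the control mean for both.

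Sod1 itself was at 562, 423 and 413 in G37R and at 394, 504 and 459 in G85R (difference -0.04, SE 0.15, limma adjusted p = 0.938), with overlapping groups. The files list no separate row for the human transgene, so Sod1 does not check the labels, and the level of mutant protein or transcript in the groups was not measured here. Bcl3, a coactivator of NF-kB, was at 4.06, 6.24 and 7.85 in G37R and at 16.2, 1.56 and 4.13 in G85R. Trib1, a pseudokinase scaffold, was at 3.04, 5.27 and 4.48 against 6.27, 1.30 and 2.06, and was lower without G85R 1 (-0.96, SE 0.19, limma adjusted p = 0.0328; with all libraries -0.48, SE 0.33, adjusted p = 0.538). Aldh1l2, a mitochondrial folate enzyme, was at 10.9, 12.5 and 15.3 against 19.3, 6.25 and 10.2. In all 3 genes G85R 1 was the highest of the 6 libraries and G85R 2 the lowest.

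Comparing the female libraries alone, 2 of each mutation with the 3 female controls in the fit, 4045 genes passed (34.5%), with 1821 higher in G85R (15.5%) and 2224 lower (19%). They included all 5 genes called with all libraries and all 368 called without G85R 1. The female libraries are part of both those fits, so this is no independent support. Myelin structure genes had 12 of 19 higher and 0 lower, glycolytic genes 0 of 14 higher and 13 lower, and reactive astrocyte genes 0 of 15 higher and 13 lower. This fit rests on 2 libraries a mutation. Each mutation has 1 male library, G85R 1 and G37R 1, so no error can be given for the males alone, and sex cannot be told apart from the single library.

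**Figure D5:**
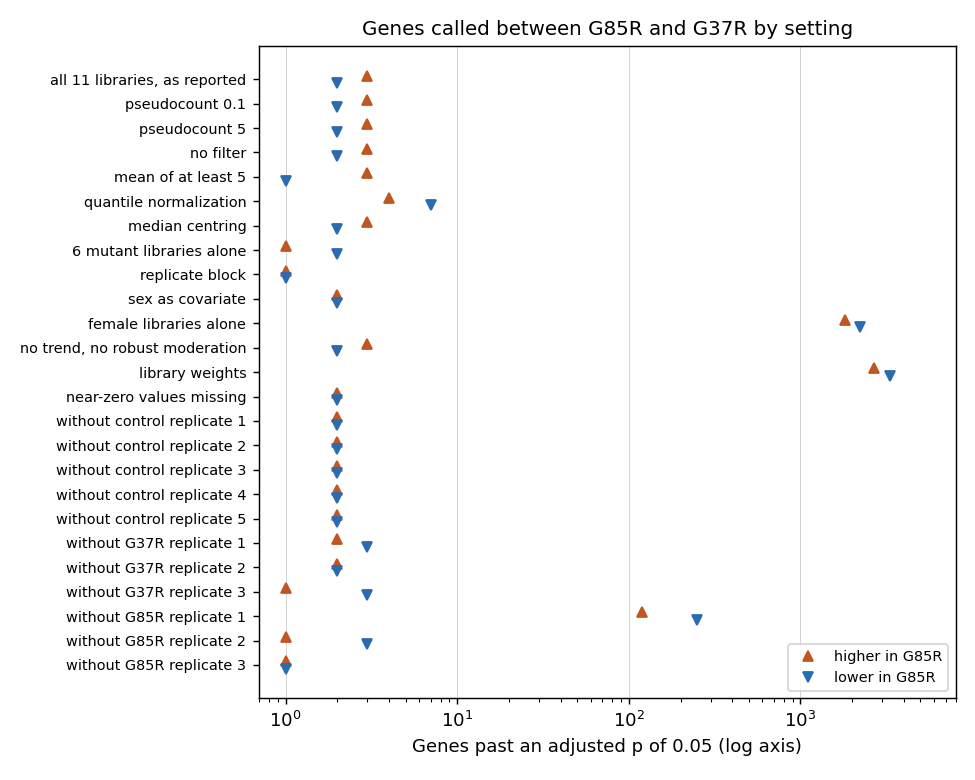
Number of genes past an adjusted p of 0.05 (x axis, log scale) that were higher (orange) or lower (blue) in G85R than in G37R under each setting (y axis). Leaving out G85R 1 gave 120 higher and 248 lower, the female libraries alone 1821 and 2224 and library weights 2677 and 3305, and each other setting gave 2 to 11 genes in all.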

How the data were processed

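Spinal cord oligodendrocyte mRNA was profiled by RNA-seq after ribosome affinity purification. Per the submitters' processing notes, Cuffdiff, Cufflinks and TopHat2 2.0.8b were used on the build mm9, and the role of each is not given. The authors deposited 1 table per cell type and stage with 23697 genes. The deposited values of the 11-month whole cord table were FPKM. Those of the other tables, the oligodendrocyte tables included, were a signal on a larger scale, by the authors' scaling, and were divided by 16774, the median ratio over genes of 8-month to 11-month cord. That this factor holds for purified cells is an assumption, and the pseudocount and minimum level rest on it. The design had assumed FPKM throughout. Deposited values are not counts, so no count test was used and absolute depth is unknown.

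Values were taken to log2(value + 1), a log2 scale applied here to the deposited values. Genes averaging 1 or more across the table's 11 libraries were tested with limma 3.58.1 in R 4.3.3, in 1 fit of 3 groups with an intensity trend and robust moderation, 2-sided, with 8 residual degrees of freedom. The minimum mean was taken over all 11 libraries also in fits that left libraries out. The test was tried on simulated data. P-values were adjusted by Benjamini-Hochberg over all genes tested, and each adjusted p is from limma. With 3 libraries against 3, an exact permutation test of 1 gene cannot go below 0.1. A near-zero value was one under 1/50 of the gene's median where that median was at least 5.

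Of 630 symbols in 42 gene lists 628 were found in the table, and 248 symbols, listed more than 1 time, were left out of lists. Members and lists were chosen with earlier results of these data known. Genes were named by rule: the called genes without overlap or near-zero values, up to 12 a direction and filled to 5 by smallest p; up to 4 called members of each list, or else the 2 with the highest level; all members of 3 short lists; and the 5 genes highest and 5 lowest in G85R 1 against G85R 2 and 3. The list part was applied with all libraries and again without G85R 1. Cell type markers, Celf4, Irf7, Isg15, Gchfr and Fmn1 are named beside these, chosen with their values known. A few genes that the rule names are not reported here. Alternatives were the pseudocount, the filter, quantile normalization, median centring, the mutants alone, a replicate block, sex, moderation, library weights, near-zero values and leaving out each library. The alternatives to the fit without G85R 1 were chosen after seeing the data. Promoters came from RefSeq tables. Python 3.11.15, pandas 2.3.3 and matplotlib 3.10.9 were used.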

Additional observations from a re-analysis of the deposited data

Results flagged for a closer look

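Among 32 genes checked in the 5 controls, 3 had 1 control library far from the rest, where chance gives about 1 in 20 groups. Mbp was listed at 0 in control 1, with the other controls at 12035 to 13388. Mobp was lowest in control 3, at 1718, with the others at 1862 to 1912. Ifit3 was highest in control 3, at 3.54, with the others at 2.60 to 2.84.

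The difference between G85R and G37R in the male libraries passed a test against that in the female libraries in 4241 genes (limma interaction term, 36.1% of those tested). The male arm is 1 library of each mutation, G85R 1 and G37R 1, and the test takes its spread from the other libraries and assumes that these vary like them. Sex therefore cannot be told apart from the single library. Of 32 named genes tested this way, 16 passed. Several of these, among them Ifit1, Ifit3, Isg15, Irf7 and Serpina3n, are named where G85R 1 stands out, so their values are a description and no independent support for the count. The male difference exceeded the female one on the log2 scale by 4.34 in Ifit1, 3.62 in Ifit3, 3.60 in Serpina3n, 3.32 in Irf7, 3.29 in Vim and 3.21 in Isg15. It exceeded it by 2.99 in C4b, 2.91 in Bcl3, 2.60 in Gfap, 1.99 in Trib1, 1.48 in Aldh1l2 and 0.77 in Y-linked Eif2s3y. It was lower by the signed values -1.25 in Mobp, -0.97 in Aven, -0.76 in Mog and -0.71 in Sod1. Pla2g4e (interaction adjusted p = 0.180), Fxyd7 (0.438), Serinc5 (0.0724) and Fam57a (0.915) did not pass.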

How the results depend on the processing

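The 5 genes called with all libraries became 11 under quantile normalization (4 higher, 7 lower), 3 with the 6 mutant libraries alone, 2 under the replicate block, 4045 in the female libraries alone and 5982 under library weights. Leaving out 1 library gave 2 genes (without G85R 3) to 368 (without G85R 1), and the other settings gave 4 or 5. Pla2g4e and Celf4 passed under every alternative in which they were tested. Serinc5 missed in 6 (highest limma adjusted p = 0.427), Fam57a in 13 (0.427) and Fxyd7 in 5 (0.309), all with the same sign. The 368 genes called without G85R 1 became 126 with a mean of at least 5, 602 under quantile normalization (266 higher, 336 lower), 3 with the mutants alone, 3299 under the replicate block, 4284 with sex as a covariate and 5719 under library weights. Leaving out 1 more library gave 8 to 2353. The cause of these moves was not tested. Same-numbered libraries of the 2 mutations did not deviate together (correlations of -0.265, -0.228 and -0.151), and the main fit used no pairing. Deviations from a mean of 3 libraries depend on one another, so this check cannot exclude shared handling by number. The numbers do align on sex in both mutant groups. In the female libraries alone 5 genes changed sign and passed, namely H2-D1 (-0.38), Ifit1 (-0.9), Ifit3 (-0.62), Isg15 (-0.43) and Irf7 (-0.52). Over 144 named genes and 24 alternatives, 3145 values stayed on their side of the threshold, 7 more did so but moved by over 1 SD of the replicates, 248 newly passed and 24 no longer passed, and in 123 values of genes past the threshold in neither fit the sign changed. Absolute depth is unknown, so no counting error can be given for low values.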

Other observations

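The genes that set G85R 1 farthest above the mean of G85R 2 and 3 were Ddx3y, Mir568, Ifit1, Ifit3 and Serpina3n, among genes with a mean of at least 5 and no near-zero value. Ddx3y, a Y-linked helicase, was at 24.9 in G85R 1, 0.015 in G85R 2 and 0 in G85R 3. Mir568 was listed at 21.3 in G85R 1, at 42.8, 88.4 and 39.1 in 3 controls and at 0 in all other libraries. The genes farthest below were Adar, Usp19, Ndufs5, Mir3960 and Sulf2, and 4 of these 5 were listed at 0 in most of the 11 libraries. Sulf2 was listed at 125 in control 1, 104 in G37R 1, 92.6 in G85R 2 and 0 in the other 8. Ndufs5 was listed at 0 in G85R 1, 13.7 in G85R 2 and 0.936 in G85R 3.

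Klk6, a secreted protease of mature oligodendrocytes, was at 554, 522 and 650 in G37R, at 915, 260 and 295 in G85R and at 247 to 314 in the controls, and was lower in G85R 2 and 3 (without G85R 1 -1.04, SE 0.13, limma adjusted p = 0.0104; with all libraries -0.47, SE 0.36, adjusted p = 0.572). Of 12 tested markers of mature oligodendrocytes, 9 had a positive difference without G85R 1 (median 0.24), and Klk6 was the only one called. Klk6 is also counted among disease-associated oligodendrocyte genes. Of 15 tested there, 5 were lower without G85R 1 (median -0.59, and -0.13 with all libraries), beside 2.11% of all genes. Junb, an AP-1 factor, was at 9.33, 10.3 and 12.6 against 20.4, 4.32 and 5.54, with the controls at 3.00 to 3.56 (limma adjusted p = 0.690 with all libraries and 0.0104 without G85R 1). Jund, of the same family, was at 87.7, 96.3 and 93.2 against 69.0, 137 and 131 and was higher without G85R 1 (0.53, SE 0.11, limma adjusted p = 0.0354; with all libraries 0.22, SE 0.21, adjusted p = 0.658). The glucocorticoid-induced gene Sgk1 spread within each group, from 222 to 1377 in the controls, at 1106, 384 and 191 in G37R and at 913, 462 and 215 in G85R.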
